A study of Mus musculus with 6 samples.

Results

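The thin filaments of striated muscle are actin polymers, and the genes described here are the 9 that encode the actins of the fibre and of its cytoskeleton and the main proteins that set thin filament length. They were chosen by name: 4 actins (Acta1, Actc1, Actb and Actg1), 2 tropomodulins (Tmod1 and Tmod4), 2 leiomodins (Lmod2 and Lmod3) and muscle cofilin (Cfl2). All 9 were found among 22036 listed genes, and all 9 were among the 6680 genes with enough reads to be tested.

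The reads come from total RNA of the quadriceps femoris, the large extensor muscle of the thigh, in 3 libraries of Prr14-WT mice (WT) and 3 of Prr14-KO mice (KO). Prr14 encodes a protein of the nuclear periphery that ties heterochromatin to the lamina, and the series title links it to mechanotransduction, MEF2C and myofibre identity. The comparison asks which thin filament genes differed in level between the genotypes. No other allele or treatment is named for either genotype, and the sources used here do not give strain, age, the deleted part of Prr14 or any pooling of animals. Each library is one title in the labels, and nothing says that libraries come from separate animals, so p-values cover only the spread among them, which may be technical. Levels are CPM, counts per 1e+06 reads of a library size scaled by TMM (a trimmed mean over genes). Values after ± are SDs of the 3 libraries.

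In a muscle fibre, the barbed ends of thin filaments are anchored and capped in the Z-disc and their pointed ends lie near the middle of the sarcomere. Tropomodulins cap the pointed end and block growth there, leiomodins are related proteins that nucleate actin and favour longer filaments, nebulin runs along the filament as a scaffold, and cofilin severs and disassembles actin. Skeletal actin (Acta1) replaces cardiac actin (Actc1) as the main fibre actin during the development of skeletal muscle, while Actb and Actg1 are the cytoplasmic actins found in nearly all cells. In humans, mutations in the skeletal actin, nebulin, leiomodin 3 and muscle cofilin genes cause nemaline myopathy.

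Library totals over all listed genes ran from 1436099 to 1712975 counts. Prr14 itself had 9, 11 and 12 counts in the WT libraries (1 to 3) against 4, 10 and 3 counts in the KO libraries (1 to 3), and its difference did not pass (log2 fold change -1.10 with SE 0.46, edgeR adjusted p = 0.196). The 10 counts of KO replicate 2 lie within the range of the WT counts. In CPM, Prr14 had 6.57, 7.50 and 8.22 in WT against 2.45, 6.25 and 1.72 in KO. All KO libraries thus lay below all WT libraries, as for 12.2% of tested genes. Without the position of the deletion these reads do not check the labels. The summed level of 6 skeletal muscle markers was 158910 to 204800 CPM in WT and 117270 to 130680 CPM in KO. Of the 6, 3 were lower in KO (Myh4, Mylpf and Tnnc2), beside 3.28% of all tested genes. The other 3 did not pass. Ckm and Tnnt3 had log2 fold changes of -0.25 and -0.39, and Des lay the other way at 0.45. TMM factors were 0.923 ± 0.0551 in WT and 1.085 ± 0.0270 in KO. When library totals replaced TMM, the median over all tested genes moved from 0.017 to 0.251 on the log2 scale, so changes below are stated relative to TMM. In bulk muscle, fewer fibres of a type and less RNA per fibre cannot be told apart.

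Reads of the 4 actins can be told apart only by their sequence differences. Over 1134 aligned coding bases Acta1 and Actc1 are 86.2% identical, with 157 differences, and Actb and Actg1 are 88.7% identical over 1128, with 128. The least alike pair was Actc1 and Actg1, at 81.9%. The first 60 coding bases on GRCm38 (GENCODE M21), all on the minus strand and in exon 2, are shown because they hold the codons for the start of the protein, which sets the muscle and cytoplasmic actins apart. Capitals mark bases that differ from Acta1 in the alignment of whole coding sequences, in which the 2 cytoplasmic genes lack 6 bases that Acta1 has. The stretches lie at chr8:123893638-123893697 (Acta1), chr2:114051972-114052031 (Actc1), chr5:142905627-142905686 (Actb) and chr11:120348032-120348091 (Actg1).
Acta1: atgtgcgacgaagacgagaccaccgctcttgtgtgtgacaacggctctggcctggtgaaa
Actc1: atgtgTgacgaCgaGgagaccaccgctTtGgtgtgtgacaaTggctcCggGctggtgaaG
Actb: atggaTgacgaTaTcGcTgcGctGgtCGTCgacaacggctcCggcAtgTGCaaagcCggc
Actg1: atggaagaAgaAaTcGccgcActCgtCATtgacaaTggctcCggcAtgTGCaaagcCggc
Actc1 differs from Acta1 at 9 of the 60 bases, Actb at 17 and Actg1 at 16. The sources used here do not name the counter that the authors used. A read too short or too error-prone to reach such bases could have been given to the wrong actin, and with Acta1 far above the others even a small share of misplaced reads would weigh on Actc1, Actb and Actg1. That share was not tested.

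Of the 4 actins, 3 could be searched for promoter motifs, since Actb was not among the windows used here, nor was Lmod3. The CArG box, bound by serum response factor (SRF), was searched on both strands of RefSeq windows that reach from 250 bases before to 50 after a gene's start (GRCm38.p6). It was found in 3 of the 7 members with a window (Acta1, Actc1 and Actg1) and in 1.63% of all 32851 windows. The 150 bases before the RefSeq start of each are shown, with the CArG box in capitals, at chr8:123894776-123894925 (Acta1), chr2:114052876-114053025 (Actc1) and chr11:120348496-120348645 (Actg1), all on the minus strand.
Acta1: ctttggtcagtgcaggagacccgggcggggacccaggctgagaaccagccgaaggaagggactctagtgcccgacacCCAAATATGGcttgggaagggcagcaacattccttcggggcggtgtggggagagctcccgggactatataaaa
Actc1: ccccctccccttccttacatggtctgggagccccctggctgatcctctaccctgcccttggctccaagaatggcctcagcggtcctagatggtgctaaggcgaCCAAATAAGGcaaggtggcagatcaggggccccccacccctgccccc
Actg1: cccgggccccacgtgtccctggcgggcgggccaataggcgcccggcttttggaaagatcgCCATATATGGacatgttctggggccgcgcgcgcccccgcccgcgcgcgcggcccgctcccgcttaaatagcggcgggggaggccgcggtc
The box lies 64 to 73 bases before the start in Acta1, 38 to 47 in Actc1 and 81 to 90 in Actg1. The RefSeq start differs from the GENCODE gene end in all 3, lying outside the gene in Acta1 and within it in Actc1 and Actg1. TATAAA stands 2 to 7 bases before the RefSeq start in Acta1 and 33 to 38 bases after it in Actc1, so all these distances hold for the RefSeq start only. The MCAT element CATTCC was found in Acta1, 41 to 46 bases before the start, and in Tmod1, 158 to 163 before it, against 14.7% of all windows. No match to the MEF2 site was found in the 7 windows, against 3.19% of all windows. A match describes the letters of the window and no binding was measured. Of the 3 genes with a CArG box, 1 was lower in KO and 2 did not pass, as given below.

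Skeletal actin was the one gene of the 9 that passed the test. Acta1 (ENSMUSG00000031972, GRCm38 chromosome 8, 123891769 to 123894751, minus strand, protein coding) had 47148, 52487 and 64690 counts in the WT libraries (1 to 3) against 39379, 35959 and 45601 counts in the KO libraries (1 to 3). On the TMM scale these are 34399, 35773 and 44286 CPM in WT and 24095, 22460 and 26123 CPM in KO. All KO libraries lay below all WT libraries. Acta1 fell from 38153 ± 5356 to 24226 ± 1835 CPM, to 0.635 of the WT level (log2 fold change -0.66, SE 0.11, 95% interval -0.90 to -0.41, edgeR adjusted p = 0.00271). Acta1 was the fifth most abundant of all listed genes by mean level (rank 5), and took 3.28 to 3.78% of the counts of a WT library and 2.42 to 2.72% of a KO library. It passed whichever library was left out (adjusted p in edgeR 0.00529 to 0.0156) and with library totals, where the log2 fold change was -0.41 (adjusted p = 0.00698).

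Of the 9 genes 1 was lower, 0 were higher and 8 did not pass in edgeR's quasi-likelihood test at an adjusted p under 0.05, which called 6.26% of all tested genes, 3.28% as lower and 2.98% as higher. At an unadjusted p under 0.05, 2 of the 9 passed (Acta1 and Tmod1, both lower), beside 1333 of the 6680 tested genes in either direction. DESeq2 and limma-voom likewise called 1 as lower and 0 as higher. KO libraries lay wholly below WT libraries for 3 of the 9 (Acta1, Tmod1 and Cfl2), against 12.2% of tested genes, and wholly above them for 0 of the 9, against 13.5%. In either direction 25.8% of tested genes did not overlap. The median log2 fold change of the 9 was -0.18, with 6 negative, beside 0.017 over all tested genes, of which 48.0% were negative. With library totals Actg1, Lmod3 and Cfl2 of those 6 were positive.

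**Figure D1:**
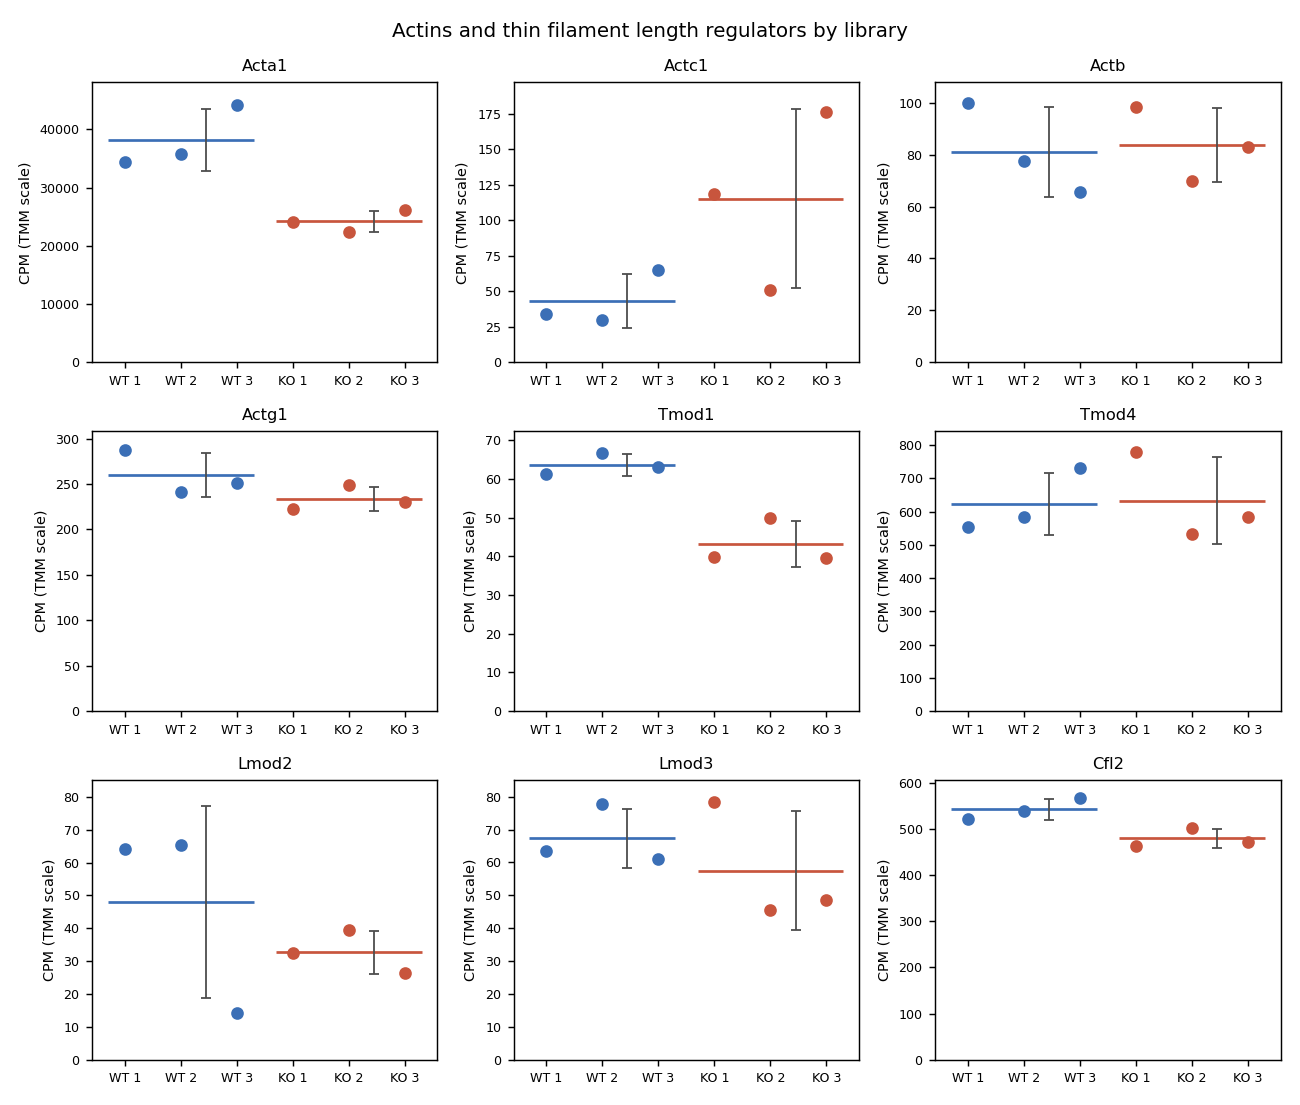
Level of each of the 9 genes in CPM on the TMM scale (y axis, from 0) in each library (x axis, 3 WT in blue and 3 KO in red), with the group mean as a line and its SD as a bar. The KO libraries lie below all WT libraries for Acta1, Tmod1 and Cfl2, and the groups overlap for the other 6.

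Cardiac actin was uneven among the KO libraries. Actc1 (ENSMUSG00000068614, chromosome 2, 114047282 to 114053548, minus strand) had 34.3, 30.0 and 65.0 CPM in the WT libraries (1 to 3) against 118.7, 50.6 and 176.4 CPM in the KO libraries (1 to 3). KO replicates 1 and 3 lay above every WT library, and KO replicate 2 lay within the WT range. The difference did not pass (43.1 ± 19.1 against 115 ± 63.0 CPM, log2 fold change 1.42, SE 0.57, 95% interval -0.04 to 2.88, edgeR adjusted p = 0.264). Without KO replicate 2 it passed as higher, with a log2 fold change of 1.77 (edgeR adjusted p = 0.0228). In the other settings the adjusted p was 0.0625 to 0.537, and the log2 fold change was positive in every setting run (0.97 to 1.84).

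Read as a share of the sarcomeric actins, which needs no scaling between libraries, Actc1 made up 0.0996, 0.0838 and 0.147% of the Acta1 plus Actc1 reads in the WT libraries (1 to 3) against 0.490, 0.225 and 0.671% in the KO libraries (1 to 3). All KO libraries lay above all WT libraries, at 0.110 ± 0.0327% against 0.462 ± 0.224% (p = 0.1 by two-sided exact permutation, the minimum for 3 against 3). Over the 7 shares compared the adjusted p was 0.233, and the design could not reach 0.05 for any of them. The share depends on both genes. Acta1 passed as lower in KO, at 0.635 of the WT level, and Actc1 stood at 2.67 times the WT level without passing. The part of each gene in the share was not tested.

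Actc1 is also a marker of immature or regenerating fibres, so the other markers of that state are given beside it. Myog, a myogenic transcription factor, had 50.3, 30.0 and 28.8 CPM in WT and 557, 350 and 451 CPM in KO, and it rose in KO (log2 fold change 3.64, edgeR adjusted p = 1.68e-05). KO replicate 2 was the lowest KO library for both Actc1 and Myog. Myh8, the neonatal myosin heavy chain, was too low to be tested, at 1.88 ± 0.896 and 5.48 ± 1.80 CPM, with all KO libraries above all WT libraries. The embryonic myosin Myh3 was at 0.910 ± 1.04 and 0.607 ± 0.625 CPM, with at most 3 counts in any library, which amount to 1.72 to 2.19 CPM. Ncam1, the remaining marker, had 2.13 ± 1.32 and 2.62 ± 1.98 CPM. The summed level of these 5 markers, Actc1 included, was 64.7 to 97.2 CPM in WT and 410 to 687 CPM in KO. In every KO library Myog made up most of that sum. Their part in the level of Actc1 was not tested.

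**Figure D2:**
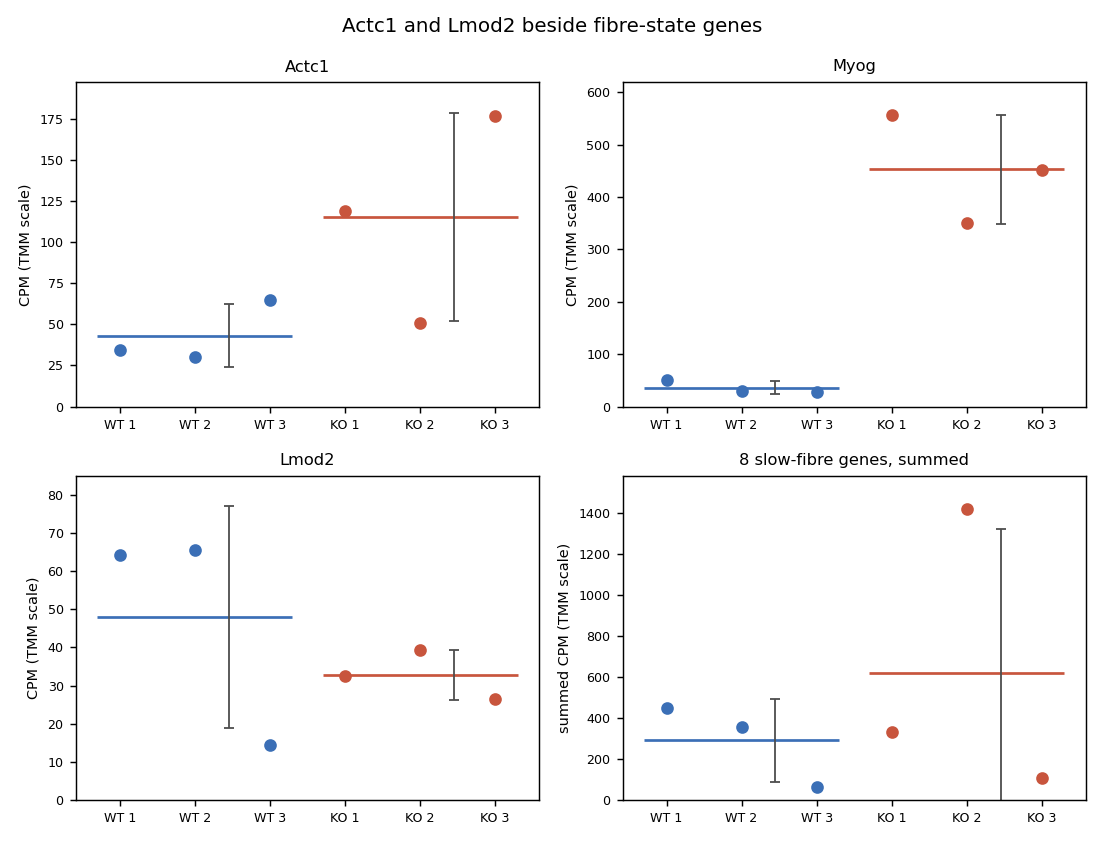
Levels in CPM on the TMM scale (y axes, from 0) of Actc1, Myog, Lmod2 and the sum of 8 slow-fibre genes in each library (x axes, WT in blue, KO in red), with group means as lines and SDs as bars, the lowest bar being cut at 0. KO replicate 2 is the lowest KO library for Actc1 (50.6 CPM) and Myog (350 CPM) and the highest of all for the slow-fibre sum (1417 CPM), and WT replicate 3 is the lowest of all for Lmod2 (14.4 CPM) and that sum (65.0 CPM).

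The cytoplasmic actins did not pass. Actb (ENSMUSG00000029580, chromosome 5, 142903115 to 142906754, minus strand) had 99.96, 77.7 and 65.7 CPM in the WT libraries (1 to 3) against 98.5, 70.0 and 83.1 CPM in the KO libraries (1 to 3), with the groups overlapping across nearly their whole range. Its log2 fold change was 0.05 (95% interval -0.34 to 0.44, edgeR adjusted p = 0.921). Actg1 (ENSMUSG00000062825, chromosome 11, 120345690 to 120348542, minus strand) had 287, 241 and 251 CPM in WT and 223, 249 and 230 CPM in KO, and its groups overlapped through KO replicate 2. Its log2 fold change was -0.15 (95% interval -0.41 to 0.10, edgeR adjusted p = 0.534). Neither interval reaches the log2 fold change of Acta1, -0.66.

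Both cytoplasmic actins together made up 1.11, 0.883 and 0.710% of the reads of the 4 actins in the WT libraries (1 to 3) against 1.31, 1.395 and 1.18% in the KO libraries (1 to 3). All KO libraries lay above all WT libraries (0.902 ± 0.202 against 1.29 ± 0.110%, p = 0.1 by two-sided exact permutation, the minimum, and 0.233 adjusted over the 7 shares). Acta1 made up the bulk, at 98.99 ± 0.182% in WT and 98.25 ± 0.118% in KO, again with no overlap (p = 0.1 by two-sided exact permutation). The Acta1 share is what the cytoplasmic actins and Actc1 leave of the same reads, so it is not a separate result. The cytoplasmic share in turn depends on Acta1, which was lower in KO, while neither cytoplasmic actin passed. Within the cytoplasmic pair, Actg1 gave 76.4 ± 2.61% of reads in WT and 73.6 ± 4.35% in KO, and the groups overlapped (p = 0.4 by two-sided exact permutation).

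Because cytoplasmic actin also comes from cells between the fibres, marker genes of those cells were read. None of the 6 fibroblast, 6 endothelial, 3 macrophage and leukocyte and 1 satellite cell markers that could be tested passed in edgeR. The summed fibroblast markers stood at 1348 to 2166 CPM in WT and 1340 to 2124 CPM in KO, led by Dcn (991 ± 230 and 800 ± 22.3 CPM). The summed endothelial markers stood at 166 to 207 and 190 to 239 CPM, led by Pecam1, and the leukocyte markers at 154 to 484 and 172 to 203 CPM, led by Lyz2. WT replicate 1 was the highest WT library for the fibroblast and leukocyte sums and for Actb. Satellite cell markers were low, at 8.18 to 21.9 and 7.34 to 11.5 CPM in sum, led by Cdh15. Their part in the levels of Actb and Actg1 was not tested.

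**Figure D3:**
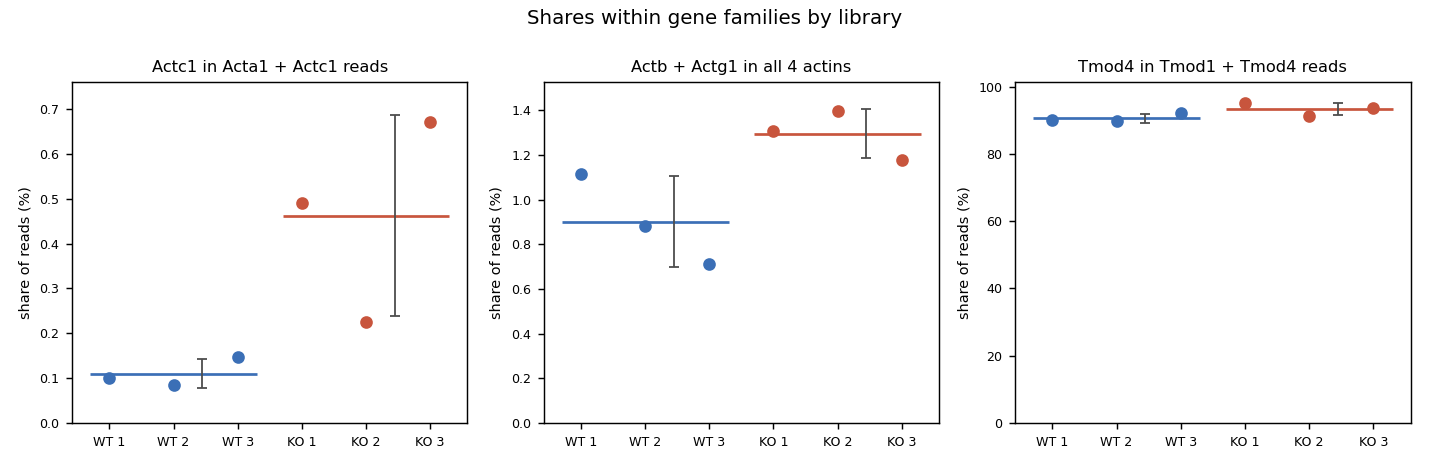
Share of reads in percent (y axes, from 0) in each library (x axes, WT in blue, KO in red) for Actc1 among Acta1 plus Actc1, for Actb plus Actg1 among the 4 actins, and for Tmod4 among Tmod1 plus Tmod4, with group means as lines and SDs as bars. KO libraries lie above all WT libraries for Actc1 (0.225 to 0.671% against 0.0838 to 0.147%) and for the cytoplasmic actins (1.18 to 1.395% against 0.710 to 1.11%), and the groups overlap for Tmod4.

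Neither tropomodulin, the caps of the pointed end, passed. Tmod1 (ENSMUSG00000028328, chromosome 4, 46038935 to 46116032, plus strand) had 61.3, 66.8 and 63.0 CPM in the WT libraries (1 to 3) against 39.8, 49.97 and 39.5 CPM in the KO libraries (1 to 3). All KO libraries lay below all WT libraries, but the difference just missed the threshold (63.7 ± 2.82 against 43.1 ± 5.96 CPM, log2 fold change -0.56, SE 0.17, 95% interval -0.92 to -0.21, edgeR adjusted p = 0.0612). It passed as lower without KO replicate 2 (log2 fold change -0.68, adjusted p = 0.0448), and in the other settings its adjusted p was 0.0545 to 0.243. Each library held 65 to 98 reads of Tmod1.

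Tmod4 (ENSMUSG00000005628, chromosome 3, 95124476 to 95129209, plus strand), a tropomodulin of skeletal muscle, had 553, 585 and 730 CPM in WT and 781, 532 and 585 CPM in KO. The groups overlapped fully, and the log2 fold change was 0.02 (95% interval -0.31 to 0.35, edgeR adjusted p = 0.962). Tmod4 gave 90.02, 89.8 and 92.1% of Tmod1 plus Tmod4 reads in WT and 95.2, 91.4 and 93.7% in KO. KO replicate 2 lay within the WT range (90.6 ± 1.26 against 93.4 ± 1.88%, p = 0.2 by two-sided exact permutation).

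The leiomodins, which nucleate actin and act against capping, did not pass. Lmod3 (ENSMUSG00000044086, chromosome 6, 97238534 to 97252759, minus strand), the main leiomodin of skeletal muscle, had 63.5, 77.7 and 60.9 CPM in WT and 78.3, 45.6 and 48.7 CPM in KO. KO replicate 1 was the highest of the 6 libraries, the other KO libraries were the lowest, and the log2 fold change was -0.23 (95% interval -0.67 to 0.22, edgeR adjusted p = 0.607). Lmod2 (ENSMUSG00000029683, chromosome 6, 24597762 to 24605414, plus strand), best known from the heart, had 64.2, 65.4 and 14.4 CPM in the WT libraries (1 to 3) against 32.4, 39.4 and 26.4 CPM in the KO libraries (1 to 3). WT replicate 3 lay below every KO library and the other WT libraries lay above them. With all libraries the difference did not pass (48.0 ± 29.1 against 32.7 ± 6.504 CPM, log2 fold change -0.55, SE 0.55, 95% interval -1.93 to 0.82, edgeR adjusted p = 0.665). Without WT replicate 3 it passed as lower (log2 fold change -0.99, adjusted p = 0.0132).

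WT replicate 3 also had the lowest sum of slow-fibre genes, a list chosen after these values were seen. The summed level of 8 such genes (Myh7, Tnnt1, Tnni1, Tnnc1, Myl2, Myl3, Tpm3 and Atp2a2) was 450, 355 and 65.0 CPM in the WT libraries (1 to 3) against 329, 1417 and 109 CPM in the KO libraries (1 to 3). Within each genotype the order of the libraries by Lmod2 followed that sum except for WT replicates 1 and 2, which were close to each other for Lmod2. KO replicate 2, with the highest sum, did not exceed WT replicates 1 and 2 in Lmod2. The same library was the lowest of KO for Actc1. The sum is carried mostly by Myl3 and Tpm3 in KO replicate 2, and by Tnnc1 (138 CPM) and Tpm3 (116 CPM) in KO replicate 1. Myh7 had 1 count in KO replicate 1 and 1 count in KO replicate 3, so it did not separate these libraries. For Myh7, Tnnc1 and Myl2, KO replicate 3 was lower in CPM than WT replicate 3, at 3 counts or fewer in each. None of the 8 passed, and the part of slow fibres in the levels of Lmod2 and Actc1 was not tested. Lmod3 gave 49.7, 54.3 and 80.9% of Lmod2 plus Lmod3 reads in WT and 70.7, 53.7 and 64.9% in KO, from 110 to 210 reads a library, and the groups overlapped (p = 0.9 by two-sided exact permutation).

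Muscle cofilin was steady within each genotype. Cfl2 (ENSMUSG00000062929, chromosome 12, 54858809 to 54862877, minus strand) had 522, 538 and 566 CPM in the WT libraries (1 to 3) against 464, 503 and 472 CPM in the KO libraries (1 to 3). All KO libraries lay below all WT libraries, and the difference was small and did not pass (542 ± 22.1 against 480 ± 20.6 CPM, log2 fold change -0.18, SE 0.098, 95% interval -0.39 to 0.03, edgeR adjusted p = 0.350). With library totals the log2 fold change was 0.06, so its direction rests on the scaling. Its non-muscle relative Cfl1 had 93.4 ± 13.3 and 105 ± 14.4 CPM, and Cfl2 gave 85.3 ± 2.21% of Cfl1 plus Cfl2 reads in WT and 82.0 ± 2.003% in KO (p = 0.2 by two-sided exact permutation).

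**Figure D4:**
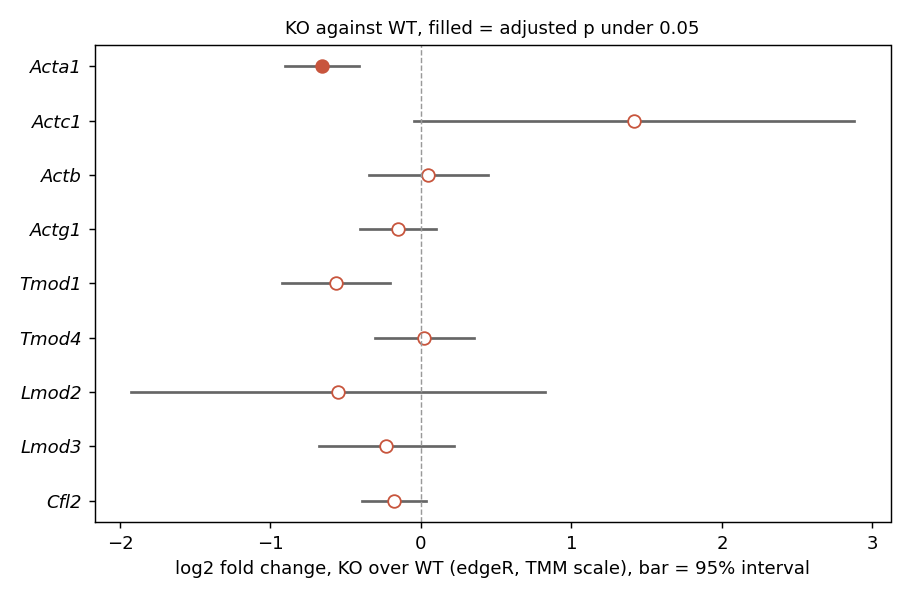
Log2 fold change of KO over WT from edgeR on the TMM scale (x axis) for each of the 9 genes (y axis), with its 95% interval as a bar and a filled point where the adjusted p was under 0.05. Acta1 alone is filled, at -0.66, the intervals of Actc1 and Lmod2 are the widest, and that of Tmod1 lies below 0.

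Per length of the main transcript, the 9 genes spanned a wide range of levels. In WT, Acta1 stood at 26385 ± 3704 CPM per kb, Tmod4 at 494 ± 75.0, Cfl2 at 184 ± 7.53 and Actg1 at 133 ± 12.5, and these 4 did not overlap from one to the next. Actb (42.3 ± 9.05), Lmod3 (30.4 ± 4.08), Actc1 (29.3 ± 13.0), Lmod2 (24.3 ± 14.7) and Tmod1 (20.2 ± 0.893 CPM per kb) followed, and each overlapped the next. In KO the order was the same for the first 4, from Acta1 at 16754 ± 1269 CPM per kb to Actg1 at 120 ± 6.81. Actc1 came next at 78.2 ± 42.8 CPM per kb, overlapping both Actg1 and Actb. Nanopore reads here start from whole cDNA, so dividing by length may lower long transcripts, and the order is given for these libraries only.

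By the likeness of log2 CPM over the 6 libraries, the genes outside the 9 closest to Acta1 included Ubl7 and Cebpzos (Pearson r 0.991 for both, among 1875 genes above 50 CPM). Of these, Ubl7 was also lower in KO, with a log2 fold change of -0.97 (edgeR adjusted p = 0.000465), and Cebpzos did not pass (0.385). Closest to Actb were the ribosomal protein gene Rps19, Cd34, a marker of endothelial and stromal progenitor cells, and Eapp (r 0.994, 0.985 and 0.979). Closest to Cfl2 were Ndufa13 and Ndufs7, subunits of respiratory complex I, and Ccng1 (r 0.987, 0.981 and 0.981). With 6 libraries in 2 genotypes such values are frequent, and 136 genes had r over 0.9 with Acta1, 21 with Actb and 96 with Cfl2. The values describe these libraries and carry no test.

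Other genes of the thin filament were taken from 6 lists. Of their 51 genes 38 were tested, of which 6 fell, 2 rose and 30 did not pass, a share of 21.1% beside 6.26% of all tested genes. Their median log2 fold change was -0.13. The lists were chosen with earlier results of these data known, and the shares were not compared by a test. The same 6.26% stands beside the counts of each list below.

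Among scaffold and barbed-end genes, 3 of 8 fell and 0 rose. Neb, the nebulin scaffold, had 10643, 10696 and 11683 CPM in WT and 5634, 5729 and 6236 CPM in KO, with no overlap (log2 fold change -0.91, SE 0.095, edgeR adjusted p = 2.66e-05). Nexn, an actin-binding protein of the Z-disc, fell from 335 ± 21.3 to 135 ± 1.65 CPM, and Nrap, a scaffold of myofibril assembly, from 237 ± 37.1 to 160 ± 15.4 CPM. The call for Nrap (edgeR adjusted p = 0.0287) did not survive leaving out replicate 1 (0.137) or 2 (0.0801) of WT, or 1 (0.0611) or 3 (0.0692) of KO. The capping protein genes Capza2 and Capzb, which close the barbed end, had log2 fold changes of -0.25 and -0.28 and did not pass. All KO libraries lay below all WT libraries for both, as for 12.2% of tested genes. With library totals the median over all tested genes moved from 0.017 to 0.251, a shift of about this size. Capza1, the other capping gene of the list, had 26.4 ± 4.31 and 26.0 ± 4.46 CPM, with overlap (log2 fold change -0.02, edgeR adjusted p = 0.977). Actn2, an alpha-actinin that anchors thin filaments in the Z-disc, lay the other way, with 646 ± 152 and 1169 ± 271 CPM. All its KO libraries lay above all WT libraries, as for 13.5% of tested genes, and it did not pass (log2 fold change 0.86, edgeR adjusted p = 0.0717). Actn3, the other alpha-actinin of the list, had 1124 ± 181 and 1034 ± 117 CPM, with overlap, and did not pass (log2 fold change -0.12, edgeR adjusted p = 0.651).

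Klhl40, a kelch protein that stabilises nebulin and Lmod3, just missed the threshold. It had 162, 91.3 and 82.8 CPM in the WT libraries (1 to 3) against 196, 202 and 196 CPM in the KO libraries (1 to 3), with all KO libraries above all WT libraries (log2 fold change 0.83, SE 0.22, edgeR adjusted p = 0.0519). It passed as higher with 9 other settings over all libraries (adjusted p 4.01e-06 to 0.0482) and without WT replicate 1 (0.000841), but not with any other library left out (0.107 to 0.208). Its relative Klhl41 did not pass, at 162 ± 39.2 and 117 ± 13.9 CPM, and Kbtbd13 was too low to be tested.

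Of 15 tested genes of actin assembly and turnover, 2 fell, 2 rose and 11 did not pass. Fhod3, a formin that builds sarcomeric actin, had 17.5, 10.9 and 18.5 CPM in WT and 3.06, 5.62 and 4.58 CPM in KO (-1.80 on the log2 scale, SE 0.36, edgeR adjusted p = 0.00672). It was read at low depth, with 24, 16 and 27 counts in WT and 5, 9 and 8 counts in KO. Pfn2, a profilin that supplies actin monomers, fell from 316 ± 19.3 to 167 ± 24.6 CPM (adjusted p = 0.000493), while Pfn1, the other profilin, had 90.3 ± 21.0 and 156 ± 52.8 CPM and did not pass (0.0971). Arpc3, a subunit of the branching Arp2/3 complex, rose from 60.3 ± 7.79 to 120 ± 21.5 CPM (edgeR adjusted p = 0.00252), whereas Arpc2, Actr2 and Actr3 of the same complex did not pass. Twf2, a twinfilin that binds monomers and barbed ends, rose by 0.84 on the log2 scale (0.0316), and this call was lost with DESeq2 (0.136) and without WT replicate 1 (0.144), WT replicate 2 (0.163), KO replicate 2 (0.0516) or KO replicate 3 (0.0938). Gsn, a severing protein and the most abundant gene of the list, had 2948 ± 577 and 2386 ± 119 CPM and did not pass.

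**Figure D5:**
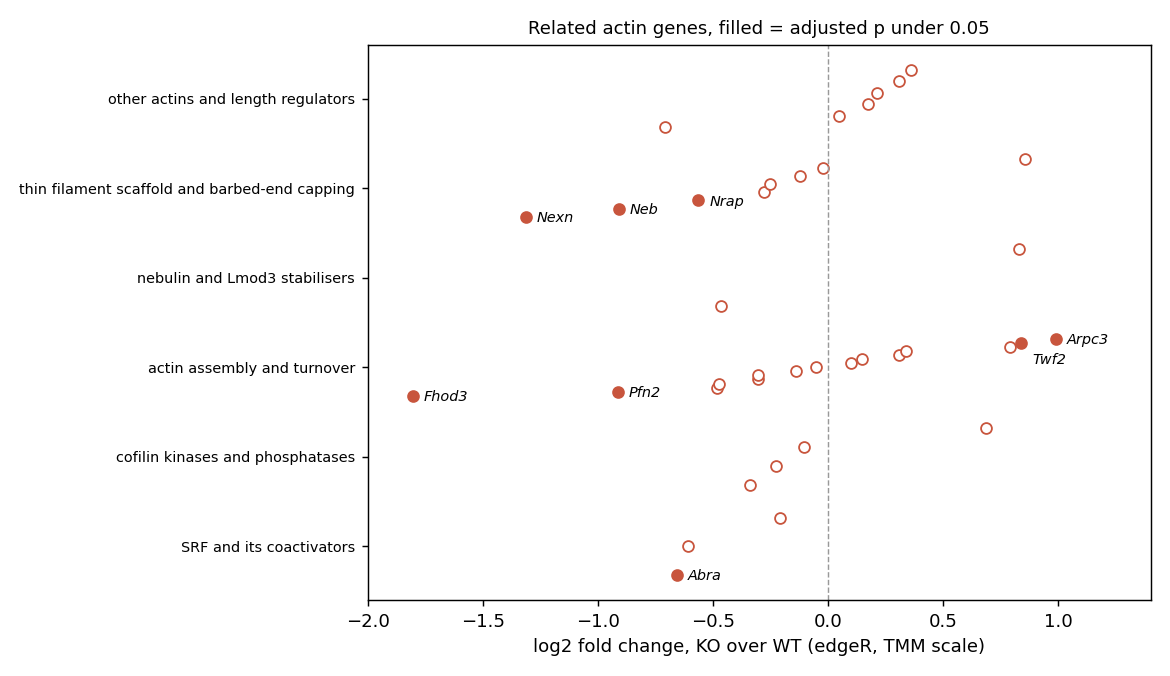
Log2 fold change of KO over WT from edgeR on the TMM scale (x axis) of the 38 tested genes of 6 related lists (y axis, 1 point a gene, spread vertically within a list), filled and named where the adjusted p was under 0.05. The 6 filled lower points lie to the left, from Fhod3 at -1.80 to Nrap at -0.56, and Twf2 and Arpc3 lie to the right.

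Of 3 tested genes of the SRF pathway 1 fell, and Srf itself was read at low depth. Abra, a muscle protein of the actin filament that activates SRF through its coactivators, had 190, 129 and 137 CPM in WT and 93.6, 98.7 and 96.8 CPM in KO, with no overlap (log2 fold change -0.66, SE 0.16, edgeR adjusted p = 0.0244). It did not pass on library totals (0.126), nor on leaving out replicate 1 of WT (0.122) or replicates 2 (0.0502) or 3 (0.0727) of KO. Srf itself had 8.58 ± 1.16 and 5.58 ± 1.25 CPM and did not pass (log2 fold change -0.61, adjusted p = 0.372), with all KO libraries below all WT libraries. Mrtfb did not pass, Mrtfa and Fhl2 were too low to be tested, and Myocd had 0 counts in every library. Mef2c, which the series title names, fell from 359 ± 9.65 to 162 ± 16.7 CPM (log2 fold change -1.15, edgeR adjusted p = 2.50e-05).

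Of 4 tested kinases and phosphatases of cofilin, 0 passed in edgeR. Rock2, a kinase upstream of cofilin phosphorylation and the most abundant of them, had 23.2 ± 2.41 and 37.5 ± 8.31 CPM (log2 fold change 0.69, adjusted p = 0.0885). The other actins and length regulators gave no call among 6 tested. Acta2, the vascular smooth muscle actin, had 128, 97.5 and 130 CPM in WT and 145, 179 and 132 CPM in KO, all KO above all WT (log2 fold change 0.36, edgeR adjusted p = 0.231). Of the 5 smooth muscle markers tested, Acta2 among them, 1 rose (Smtn, smoothelin, 0.63 on the log2 scale, adjusted p = 0.0402), and all 5 had a positive log2 fold change. Smtn did not pass once any 1 library was left out (edgeR adjusted p 0.0645 to 0.172), nor with DESeq2 (0.152) or limma-voom (0.0501). The summed smooth muscle markers stood at 356 to 442 CPM in WT and 450 to 591 CPM in KO. Tmod2, the tropomodulin of neurons, had 11.9 ± 1.14 and 7.26 ± 1.76 CPM, all KO below all WT, and did not pass.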

How the data were processed

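The authors deposited raw read counts (whole numbers per Ensembl gene, 22036 genes). Deposited CPM (counts divided by a total per library, per the file headers) were not used for any result. Per the labels' protocols the libraries are nanopore cDNA made by template switching with 14 PCR cycles. The submitters' processing notes name minimap2, DESeq2 1.6.3 and GRCm38. The sources used here do not give counter, annotation release or strand use, so reads of overlapping genes on opposite strands (Gm20388 at Acta1, 128 counts over 6 libraries, and Tstd2 at Tmod1, 48 counts) may not be told apart. Symbols were matched by identifier for 22022 genes.

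The test was edgeR 4.0.16 in R 4.3.3. Its filterByExpr (minimum count 10, minimum total 15) left 6680 genes, scaled by TMM and tested by quasi-likelihood with robust dispersion. Benjamini-Hochberg adjustment ran over all 6680 genes at 0.05. The SE is the size of the log2 fold change divided by the square root of F, and 95% intervals use its t quantile. Replicates are numbered in accession order. Shares of reads were compared by exact permutation over libraries, and 3 of the 7 (Actc1 among sarcomeric actins, both cytoplasmic actins, and Actg1 among these) were added after values were seen. Alternatives were other scalings and filters, DESeq2 1.42.0, limma-voom 3.58.1, robust=FALSE and leaving out each library. The steps were tested on simulated data with a common dispersion for all genes. There, 18.8% of 1.5-fold and 67.4% of 2-fold changes were called, so a gene that did not pass may still differ. The 9 genes and the lists were chosen with earlier results of these data known. Named are the 9 genes, each list's passing and most abundant genes, and Prr14, Mef2c, Neb and Klhl40, and for likeness the 3 closest genes above 50 CPM by log2 CPM with prior count 2. A gene that this rule covers is not reported here. Other named list genes and the slow-fibre list were chosen after their values were seen. A level of 3 counts amounts to 1.72 to 2.19 CPM, depending on the scaled size of the library.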

Additional observations from a re-analysis of the deposited data

How the results depend on the processing

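Acta1 kept its direction and its call in all 15 alternatives. The SE was largest for Actc1 (0.57) and Lmod2 (0.55), at 44 to 308 and 21 to 96 reads a library, while Tmod1, at 65 to 98 reads, had an SE of 0.17, so read number alone did not order the precision. With library totals, Actg1, Lmod3 and Cfl2 turned to 0.079, 0.0078 and 0.059 on the log2 scale, each without passing. Leaving out single libraries gave log2 fold changes of -0.76 to -0.54 for Acta1, 0.97 to 1.84 for Actc1, -0.09 to 0.20 for Actb, -0.23 to -0.10 for Actg1, -0.68 to -0.51 for Tmod1, -0.16 to 0.14 for Tmod4, -0.99 to -0.28 for Lmod2, -0.51 to -0.09 for Lmod3 and -0.23 to -0.15 for Cfl2. The direction of Actb reversed on leaving out WT replicates 2 (-0.0060) or 3 (-0.089) or KO replicate 1 (-0.08), and that of Tmod4 on leaving out WT replicates 1 (-0.089) or 2 (-0.05) or KO replicate 1 (-0.16). The members passing then numbered 1 to 2 as lower (2 without WT replicate 3 or KO replicate 2) and 0 to 1 as higher. The KO minus WT difference in the share of Lmod3, 1.46 percentage points, became -4.50 to 11.1, reversed on leaving out WT replicates 1 (-4.50) or 2 (-2.22) or KO replicate 1 (-2.36). The Acta1, Tmod4 and Cfl2 shares kept their direction, at -0.840 to -0.662, 1.93 to 3.80 and -4.55 to -2.39.

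Over all genes, 219 were lower and 199 higher. Without a filter these were 362 and 344, with library totals 653 were higher, and with libraries left out 154 to 187 were lower and 83 to 179 higher (101, 83 and 129 without WT replicates 1, 2 and 3). Of the related genes, 2 passed as higher, against 5 with library totals or no filter, 4 with robust=FALSE, DESeq2 or limma-voom, and 1 to 3 with a library left out (1 without WT replicate 2), while 4 to 7 then passed as lower in place of 6. Nrap also lost its call with library totals (-0.34) and without the 20 most abundant genes (-0.48). The causes were not tested. No paired analysis was possible because the genotypes share fewer than 2 replicate numbers in the sample titles.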
